A study of Xenopus tropicalis with 12 samples.

Results

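A set of 76 genes was taken from the 19921 counted in the intestine of Xenopus tropicalis tadpoles. Their level was lower in the libraries labelled T3Homo than in those labelled contHomo, and close together in the libraries labelled T3WT and contWT. The members were selected on these measured values, as log2 ratios of group means in CPM (counts scaled to a common library size, with TMM factors that adjust the totals) after adding 0.5. A member had a T3Homo to contHomo ratio of at most -1, a T3WT to contWT ratio within 0.5 of 0, and a mean of at least 2 CPM in its highest group. Of the 10677 genes that reached 2 CPM in a group, 189 met the condition on T3Homo and contHomo. Among those 189, 76 also met the condition on T3WT and contWT, 82 were lower in T3WT by 0.5 or more on that scale, and 31 were higher by 0.5 or more. The reverse selection, a fall of at least 1 from contWT to T3WT with less than 0.5 between contHomo and T3Homo, held 303 genes. The size of the set moved with the added constant, the minimum mean and the scaling. It was 89 genes, 71 of them shared with the 76, with 0.1 added, and 48 genes, 42 shared, with 2 added. With a minimum mean of 1 CPM it was 87 genes, all 76 among them, and with 5 CPM 55 genes, all within the 76. At total-count scaling it was 68 genes, 47 of them shared.

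The 12 libraries form 4 groups of 3, and the labels disagree about 6 of them. By the column names of the count table, contWT is wild type without T3, T3WT is wild type with T3, contHomo is TRα(-/-) without T3 and T3Homo is TRα(-/-) with T3. The titles and characteristics of the samples instead give contHomo as wild type with T3 and T3WT as TRα(-/-) without T3. All labels agree that contWT is untreated wild type and T3Homo is T3-treated TRα(-/-). T3 was given at 10 nM for 18 h to tadpoles at stages labelled 52 to 54, and both genotypes came from the same parents. The name "T3 repression without TRα" therefore fits the members only under the column names. Under the titles, the members are genes that were lower in TRα(-/-) than in wild type when both had received T3, and similar in both without T3. The groups are called here by their column names throughout. How the receptor gene was disrupted is not given in the sources used here.

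Each group was 1 pool of RNA from several tadpoles, and its 3 libraries are technical replicates of that pool. Errors are SD over n = 3 libraries unless given as SE, and p-values compare pools, with no information on the spread between animals. Library totals were between 34322099 and 44755390 counts. T3WT stood apart from the other groups in its TMM factor, 1.21 in each library against 0.912 to 0.964 elsewhere. At total-count scaling the median over all tested genes shifted, on the log2 scale, to 0.45 for T3WT vs contWT (0.05 with TMM) and to -0.35 for T3Homo vs T3WT (-0.02 with TMM). The part of this shift in the results below was tested only through the other scalings. The reference gene table paired 0 of the identifiers of these genes with a symbol, so the genes are given by identifier and by position on the scaffolds of the deposited table, whose build is not given in the sources used here, and neither the targeted gene nor markers of intestinal cell types could be checked. In bulk tissue, fewer cells of a type and less RNA per cell cannot be told apart.

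Thyroid hormone drives the metamorphosis of frogs. Its active form, T3, binds nuclear receptors, TRα and TRβ, which sit on DNA with a retinoid X receptor partner, hold target genes down with corepressors when no hormone is bound and recruit coactivators when it is. TRα is already made before metamorphosis. In the intestine T3 causes the larval epithelium to die and an adult epithelium to form from stem cells. Genes induced by T3 are better understood than genes that T3 lowers.

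**Figure D1:**
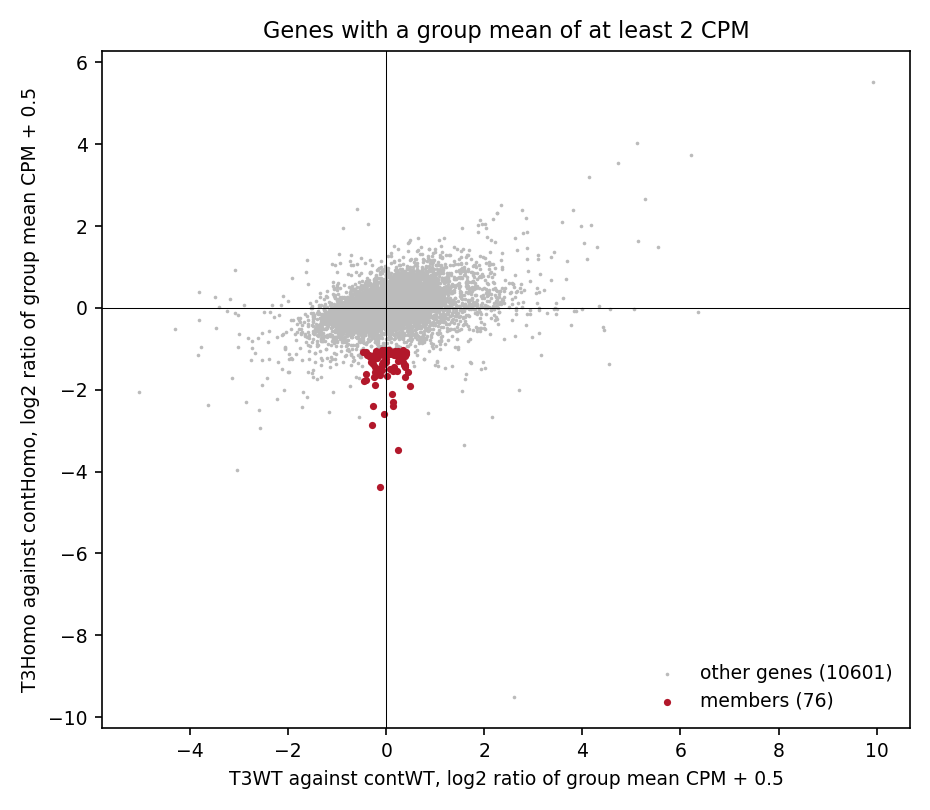
Log2 ratio of T3WT to contWT (horizontal) against that of T3Homo to contHomo (vertical) for the 10677 genes with a group mean of at least 2 CPM, each ratio after adding 0.5 CPM. The 76 members in red fill a strip within 0.5 of 0 on the horizontal axis and at or below -1 on the vertical axis, as the selection requires.

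The selection draws sharp lines through a continuous cloud of genes, which the plot of both ratios shows. Just inside the limit on T3Homo and contHomo lay ENSXETG00000031632 at -1.02, ENSXETG00000020597 at -1.02 and ENSXETG00000014626 at -1.03. Just outside it lay ENSXETG00000034257 at -0.997, ENSXETG00000001185 at -0.995 and ENSXETG00000018908 at -0.99. At the limit on T3WT and contWT, ENSXETG00000019854 at 0.49 and ENSXETG00000022298 at -0.47 were inside, and ENSXETG00000006711 at -0.50 and ENSXETG00000017913 at -0.51 were outside. The median ratio of T3Homo to contHomo over the members was -1.31, with a range from -4.37 to -1.02. Most members therefore lay within a short distance of the limit.

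Closeness of T3WT and contWT was a matter of size and not of absence of a difference. All 76 members passed the expression filter and entered the fit. In edgeR's quasi-likelihood test 47 of the 76 differed between T3WT and contWT at an adjusted p below 0.05, 25 higher and 22 lower, where 78.5% of all genes tested differed by that measure. With the added requirement of a 2-fold change, which defines a call in what follows, 1 member was called higher in T3WT than in contWT, where 12.8% of all genes were. That member was ENSXETG00000017955, from 4 counts in contWT and 18 in T3WT. The selection holds T3WT close to contWT, which favours shares below those of all genes, and nothing is read from that comparison. Calls of a lower level in T3Homo than in contHomo were made for all 76, against 3.83% of all genes, and calls of a negative difference between both ratios for 71 of 76, against 12.4%. Both follow from the selection and nothing is read from them.

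The selection leaves undecided whether contHomo or T3Homo stands apart from the other groups, and the members were divided in this. Each member's position was computed as the place of the mean of contWT and T3WT between T3Homo, at 0, and contHomo, at 1, on the log2 scale. A position near 0 means that contHomo alone was high, and a position near 1 that T3Homo alone was low. The median position was 0.75, with an interquartile range of 0.53 to 0.97 and a range from -0.49 to 1.96. A total of 58 members were nearer to contHomo and 18 nearer to T3Homo. T3Homo had the lowest mean in 73 of 76 members and contWT in the other 3. The highest mean was in contHomo for 52 members, in T3WT for 13 and in contWT for 11. The selection favours both results, since contHomo cannot be lowest nor T3Homo highest, and contWT and T3WT are held close. The shares of all genes with these orders were not computed. Position uses the same group means as the selection, so counts of calls within classes of position partly restate the sorting.

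**Figure D2:**
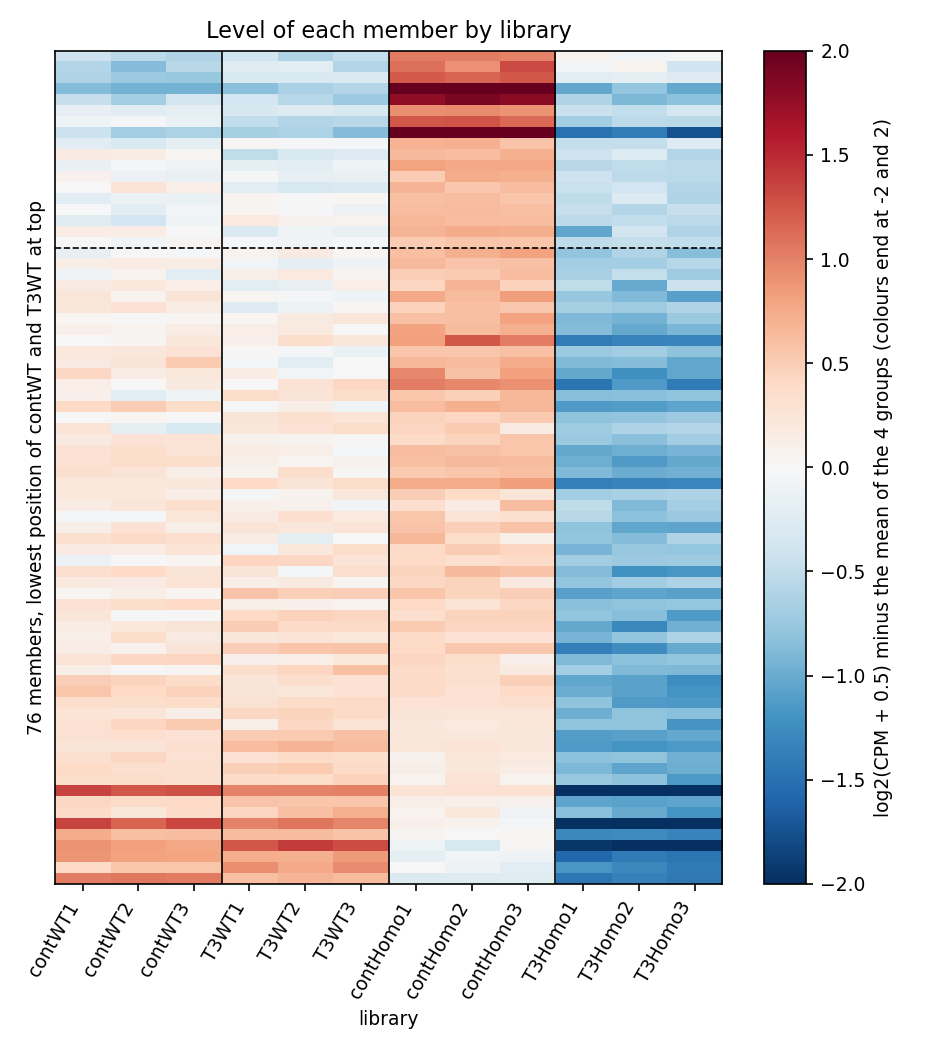
Level of each of the 76 members (rows) in each of the 12 libraries (columns), as log2(CPM + 0.5) minus the mean of the 4 groups, ordered by position. Above the dashed line are the 18 members nearer to T3Homo, in which contHomo is high. Towards the bottom contHomo is near or below contWT and T3WT and the T3Homo libraries are low.

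Between T3Homo and contWT, the groups on which all labels agree, 52 members (68.4%) were lower in T3Homo, where 6.10% of all genes were called lower. A single member was called higher, where 5.12% of all genes were, and 23 were not called. The median log2 fold change of the members was -1.20, against 0.00056 for all genes tested. In 70 of 76 members every T3Homo library was below every contWT library, as in 33.9% of all genes. Against T3WT, 47 members (61.8%) were called lower in T3Homo, where 13.4% of all genes were called lower. In 69 members all T3Homo libraries were below all T3WT libraries, as in 38.2% of all genes. At total-count scaling 46 members were lower than in contWT and 60 lower than in T3WT. These counts use the libraries on which the members were chosen. Because T3WT is held near contWT and T3Homo well below contHomo, a difference of contHomo or of T3Homo from contWT had to appear, and only its division between them is open to description. The fit on the 6 contWT and T3Homo libraries alone gave the same 52 and 1 calls by number.

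Fewer members were called between contHomo and contWT than between T3Homo and contWT. All genes went the same way, with 3.11% called higher and 2.87% lower in contHomo, against 5.12% and 6.10% in T3Homo. By an adjusted p below 0.05 alone, edgeR's test gave 49 members higher and 12 lower in contHomo than in contWT. The share of all genes by that measure was not computed for this contrast, and nothing is read from these counts. Between T3WT and contWT, 78.5% of all genes tested passed the same measure. Calls were made for 10 members higher in contHomo (13.2%), where 3.11% of all genes were called higher, and for 5 lower (6.58%), where 2.87% were. The other 61 were not called, and the median log2 fold change was 0.36. In 50 members every contHomo library was above every contWT library, as in 26.9% of all genes, and in 16 every one was below, as in 30.6%. Without contWT replicate 1 the number called lower was 3 in place of 5. A lower level in T3Homo than in all 3 other groups was called for 43 members, where the difference from contHomo is set by the selection. The share of all genes called so was not computed, and it is at most the 3.83% called lower than in contHomo. Of these 43 members, contHomo was not called against contWT in 36, was higher in 2 and lower in 5. This split has no share of all genes beside it, and nothing is read from it.

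**Figure D3:**
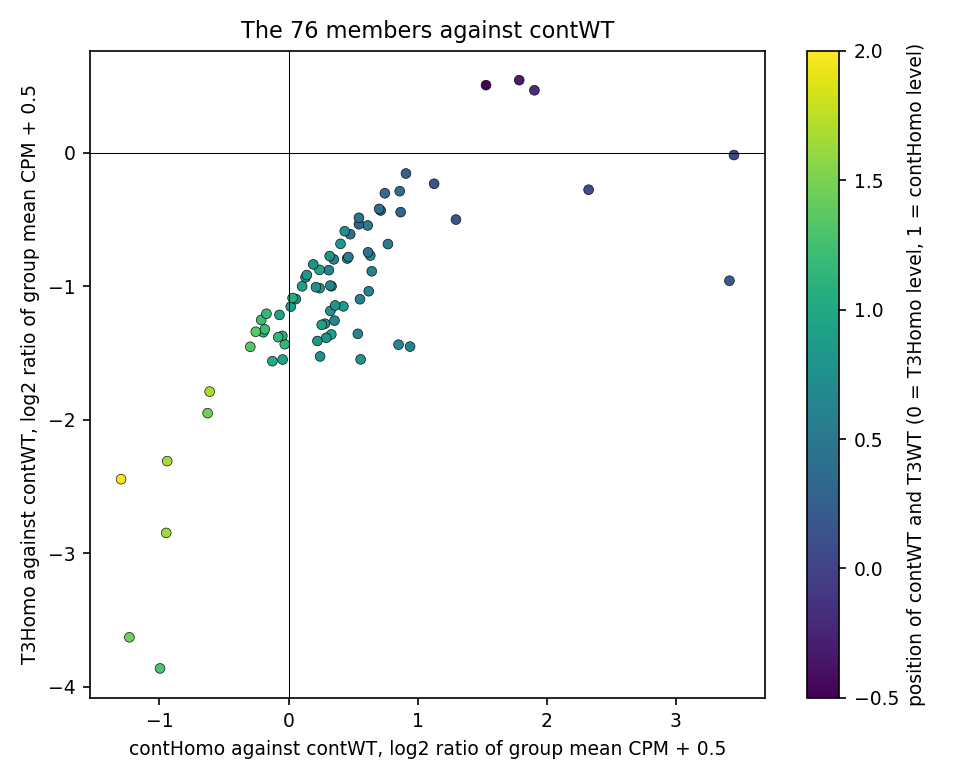
Log2 ratio of contHomo to contWT (horizontal) against that of T3Homo to contWT (vertical) for the 76 members, after adding 0.5 CPM, coloured by position. Most points lie a little right of 0 and between 0 and -1.6 on the vertical axis. The points at the far right have high contHomo, and those at the lower left are low in both Homo groups.

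In 8 members, with positions below 0.25, the difference lay mainly in a high contHomo. All 8 were called higher in contHomo than in contWT, where 3.11% of all genes were. Their log2 fold changes were 1.15 to 7.002, with a median of 2.52. A position below 0.25 and the selection together put contHomo well above the mean of contWT and T3WT, so these calls restate the sorting. In T3Homo vs contWT the log2 fold changes of the 8 members ranged from -1.56 to 1.26, with a median of -0.24. Of the 8, 1 was called lower and 1 higher. Under the column names these genes were raised in untreated TRα(-/-) intestine and lower after T3. Under the titles they were raised in wild type with T3 and lower in TRα(-/-) with T3. Since 2 of the 8, ENSXETG00000004181 and ENSXETG00000012777, fall outside the rule for named genes, they are named here after their values were seen.

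ENSXETG00000013747, with 9 exons (plus strand, GL173088.1 from 805924 to 815825), had the lowest T3Homo to contHomo ratio of the set on the selection's scale, with 0.5 CPM added. In contWT its level was 1.57, 1.23 and 1.31 CPM over the 3 libraries, and in T3WT 1.26, 1.301 and 1.03 CPM. In contHomo it was 18.5, 20.1 and 19.6 CPM, and in T3Homo 0.4903, 0.5595 and 0.338 CPM. The contHomo libraries were far above all others, and the T3Homo libraries lay below contWT and T3WT without overlap. In the fit, which adds edgeR's small prior count in place of 0.5 CPM, the fold from T3Homo to contHomo was 41.7, less than the 151 of ENSXETG00000017955, which rests on 4 counts in T3Homo. From contWT to contHomo it was 14.1, or 3.82 ± 0.09 (SE) on the log2 scale (edgeR adjusted p = 6.48e-59), and T3Homo was 2.96-fold below contWT (edgeR adjusted p = 3.79e-10).

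ENSXETG00000017955 (8 exons, plus strand, GL173118.1 from 50743 to 57766) was nearly restricted to contHomo. The 3 libraries of contWT were at 0.0562, 0.0285 and 0.0305 CPM and those of T3WT at 0.0715, 0.149 and 0.176 CPM. Those of contHomo were at 5.31, 5.71 and 5.12 CPM and those of T3Homo at 0, 0.0973 and 0 CPM. It had 573 counts in contHomo, 18 in T3WT, and 4 each in contWT and T3Homo. All 4 T3Homo counts came from 1 library. A count of 0 allows up to 3 counts, which are 0.0700 CPM in T3Homo replicate 1 and 0.0780 CPM in replicate 3. Its contHomo level was 128-fold that in contWT in the fit, or 7.002 ± 0.28 (SE) on the log2 scale (edgeR adjusted p = 6.05e-41). T3Homo and contWT libraries overlapped (edgeR adjusted p = 0.843).

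ENSXETG00000013076 (6 exons, minus strand, GL173310.1 from 51813 to 58194) was likewise high in contHomo, at a low level overall. The contWT libraries had 0.309, 0.1995 and 0.366 CPM and the T3WT libraries 0.358, 0.256 and 0.176 CPM. The contHomo libraries had 3.34, 3.62 and 3.42 CPM and the T3Homo libraries 0.233, 0.0973 and 0.1299 CPM. The contHomo libraries were the high ones, and the other 3 groups overlapped. contHomo was 11.8-fold contWT (log2 fold change 3.56 ± 0.21 SE, edgeR adjusted p = 4.13e-29). For T3Homo against contWT the log2 fold change was -0.898 ± 0.42 (SE), which was not called, and it was called without T3Homo replicate 1, at -1.35, and without contWT replicate 2, at -1.11.

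The 3 members with the lowest positions kept a T3Homo level above contWT. ENSXETG00000031632 (GL173000.1 from 367784 to 382365) was at 9.81 ± 0.724 CPM in contWT, 9.96 ± 0.741 in T3WT, 29.3 ± 0.2795 in contHomo and 14.2 ± 0.746 in T3Homo. ENSXETG00000023342 (GL172638.1 from 4411808 to 4418724) was at 8.15 ± 0.519, 10.8 ± 0.0861, 31.9 ± 0.932 and 11.5 ± 0.303 CPM in the same groups. ENSXETG00000016972 (GL172716.1 from 909714 to 930855), at 0.243 ± 0.0875, 0.433 ± 0.128, 2.06 ± 0.362 and 0.583 ± 0.175 CPM, was the member called higher in T3Homo than in contWT. In each of the 3 all T3Homo libraries were above all contWT libraries and below all contHomo libraries. The call for ENSXETG00000016972, at 1.26 ± 0.33 (SE) on the log2 scale (edgeR adjusted p = 5.30e-04) from 25 and 72 counts, was lost without contWT replicate 2, at 0.99. The others of the 8 were ENSXETG00000004181, whose contHomo level of 30.7 ± 0.641 CPM compares with 13.8 ± 0.321 in contWT and 11.7 ± 0.654 in T3Homo, and ENSXETG00000012777, at 15.5 ± 0.707 CPM against 6.004 ± 0.199 and 4.101 ± 0.296.

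In 30 members, with positions from 0.25 to 0.75, contHomo lay above contWT and T3WT while T3Homo lay below them. The 10 with positions under 0.5 had a median log2 fold change of 0.75 in contHomo vs contWT and -0.48 in T3Homo vs contWT, and 1 of them was called higher in contHomo. The 20 from 0.5 up had medians of 0.49 and -1.10, with 1 called higher in contHomo and 14 lower in T3Homo. For contHomo vs contWT, 3.11% of all genes were called higher. For T3Homo vs contWT, 6.10% of all genes were called lower. The selection and the class of position together shape these counts of calls, and nothing is read from the counts. Positions from 0.25 to 0.75 place the fall between the groups labelled Homo on both sides by definition, so this division restates the sorting. By these medians the rise of contHomo was the larger part under 0.5, and the drop of T3Homo from 0.5 up.

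ENSXETG00000033287 (3 exons, minus strand, GL172746.1 from 1997993 to 2001903) had both parts past the threshold. In contWT its level was 0.955, 0.998 and 1.19 CPM over the 3 libraries, and in T3WT 1.05, 1.34 and 1.19 CPM. In contHomo it was 2.05, 2.92 and 2.44 CPM, and in T3Homo 0.0467, 0.07298 and 0.07795 CPM. The 3 T3Homo libraries held 8 counts together and lay far below all others, and contHomo lay above contWT and T3WT. T3Homo was 15.4-fold below contWT (log2 fold change -3.94 ± 0.37 SE, edgeR adjusted p = 4.48e-17) and contHomo 2.34-fold above it (log2 fold change 1.23 ± 0.16 SE, edgeR adjusted p = 2.94e-10).

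ENSXETG00000017044 (11 exons, minus strand, GL173385.1 from 189359 to 198912) had a similar order at a higher level. The 3 libraries of contWT were at 4.69, 4.28 and 4.87 CPM and those of T3WT at 4.24, 5.24 and 5.799 CPM. Those of contHomo were at 9.15, 8.66 and 8.38 CPM and those of T3Homo at 1.21, 1.65 and 1.299 CPM. The contWT and T3WT libraries overlapped, contHomo was above both and T3Homo below both. T3Homo was 3.34-fold below contWT (edgeR adjusted p = 1.01e-22), and contHomo, 1.89-fold above it, stayed under the 2-fold limit of a call. ENSXETG00000000784 (4 exons, minus strand, GL173197.1 from 227051 to 230999) was at 4.81 ± 0.539 CPM in contWT, 4.03 ± 0.354 in T3WT, 7.21 ± 1.004 in contHomo and 1.58 ± 0.165 in T3Homo. It too was called lower in T3Homo than in contWT and not called in contHomo. ENSXETG00000022298, the gene at the edge of the limit on T3WT, differed in that its T3WT and T3Homo libraries overlapped, at 1.12 ± 0.146 and 1.05 ± 0.166 CPM, below 1.74 ± 0.114 in contWT and 2.78 ± 0.1104 in contHomo.

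In 20 members, with positions from 0.75 to below 1, T3Homo was the group that stood apart. The median log2 fold change was 0.27 in contHomo vs contWT and -1.25 in T3Homo vs contWT, with 19 called lower. Of all genes 6.10% were called lower, but the selection and this class of position together favour such calls. ENSXETG00000024110 (14 exons, plus strand, GL172725.1 from 751795 to 769840) had the lowest T3Homo to contHomo ratio of these 20 members. The contWT libraries had 11.8, 11.9 and 12.1 CPM and the T3WT libraries 13.7, 12.3 and 13.2 CPM. The contHomo libraries had 17.4, 17.3 and 18.6 CPM and the T3Homo libraries 3.67, 3.75 and 3.85 CPM. The T3Homo libraries were the low ones and overlapped with no other group, and contHomo was the highest. T3Homo was 3.202-fold below contWT (log2 fold change -1.68 ± 0.07 SE, edgeR adjusted p = 2.08e-37) and 3.52-fold below T3WT. At the shallow end, ENSXETG00000014626 was at 3.28 ± 0.125 CPM in contWT and 1.62 ± 0.0502 in T3Homo. Its call in T3Homo vs contWT, at -1.03 ± 0.13 (SE), was lost at total-count scaling, at -0.97.

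In 18 members, with positions of 1 and above, contHomo was by definition no higher than the mean of contWT and T3WT. All 18 were called lower in T3Homo than in contWT and in T3WT, where 6.10% and 13.4% of all genes were. The selection and this class of position together nearly fix these calls, and nothing is read from them. The median log2 fold change was -1.74 in T3Homo vs contWT and -0.27 in contHomo vs contWT. The 5 members called lower in contHomo than in contWT were all here, as follows from the selection and the definition of position. Under the column names these 5 were lower in untreated TRα(-/-) than in wild type and lower still with T3. Under the titles they were lower in wild type with T3, and lower still in TRα(-/-) with T3, than in either untreated genotype.

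**Figure D4:**
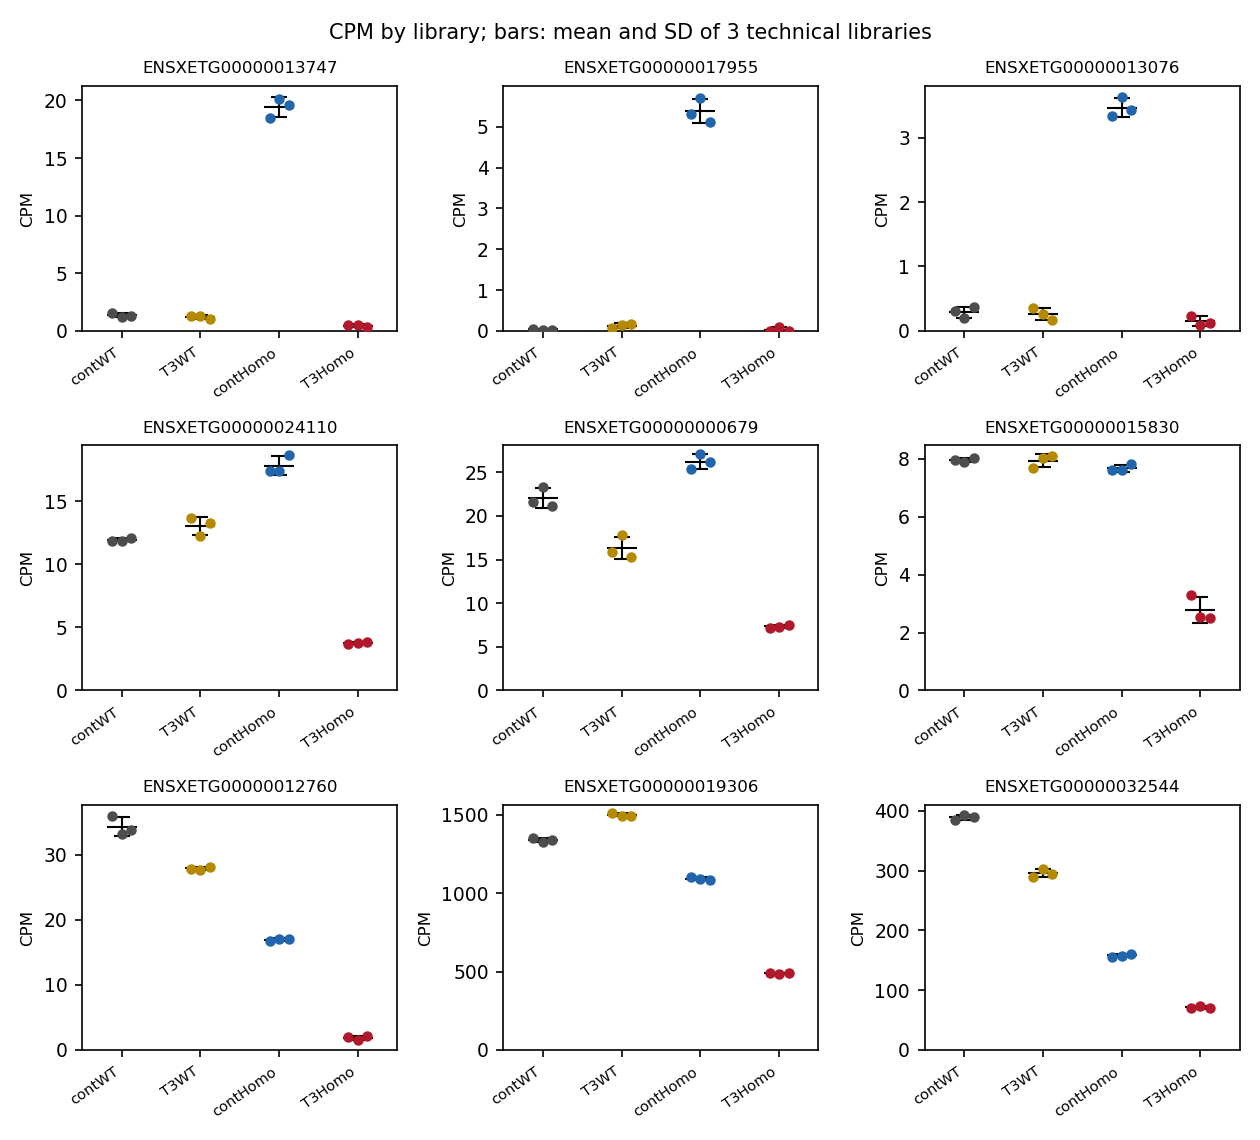
CPM in each of the 12 libraries for 9 members, each panel on its own linear axis from 0, with points for libraries and black bars for the mean and SD of 3 technical libraries. In the top row contHomo is far above the other groups. In the middle row T3Homo is the lowest group, with contHomo above or level with contWT. In the bottom row the levels step down from contWT and T3WT to contHomo and to T3Homo.

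ENSXETG00000012760, annotated as a single exon of 672 bases on the plus strand of GL172834.1 from 735647 to 736318, had the lowest T3Homo to contHomo ratio of these 18 with 0.5 CPM added. In contWT its level was 35.9, 33.2 and 33.8 CPM over the 3 libraries, and in T3WT 27.9, 27.7 and 28.1 CPM. In contHomo it was 16.8, 17.1 and 17.1 CPM, and in T3Homo 2.05, 1.53 and 2.105 CPM. The 4 groups did not overlap, and their order was contWT, T3WT, contHomo and T3Homo from high to low. T3Homo was 18.2-fold below contWT (log2 fold change -4.19 ± 0.07 SE, edgeR adjusted p = 5.25e-73) and 8.999-fold below contHomo. contHomo was 2.03-fold below contWT (log2 fold change -1.02 ± 0.04 SE, edgeR adjusted p = 1.78e-38), a call that was lost without contWT replicate 1, at -0.98.

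ENSXETG00000012784 (3 exons, minus strand, GL172851.1 from 283772 to 288419) had the same order. The 3 libraries of contWT were at 8.54, 7.38 and 8.38 CPM and those of T3WT at 6.51, 6.89 and 6.44 CPM. Those of contHomo were at 3.29, 3.22 and 2.97 CPM and those of T3Homo at 0.1401, 0.316 and 0.1299 CPM. No groups overlapped. T3Homo held 24 counts and was 40.96-fold below contWT (log2 fold change -5.36 ± 0.16 SE, edgeR adjusted p = 4.78e-50), and contHomo was 2.57-fold below contWT. In the fit it was 15.9-fold lower in T3Homo than in contHomo, a larger fold than that of ENSXETG00000012760.

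ENSXETG00000019854 (7 exons, minus strand, GL173230.1 from 91871 to 123400) had the highest T3WT to contWT ratio of the members with 0.5 CPM added. In the fit its T3WT level was 1.43-fold that of contWT, below the 3.29-fold of ENSXETG00000017955 and the 1.79-fold of ENSXETG00000016972, both from few counts. The contWT libraries had 9.71, 9.18 and 8.86 CPM and the T3WT libraries 12.4, 14.01 and 13.1 CPM. The contHomo libraries had 4.66, 3.899 and 5.12 CPM and the T3Homo libraries 0.934, 0.803 and 0.831 CPM. T3WT was the highest group and T3Homo the lowest, with no overlap. T3Homo was 10.8-fold below contWT and 15.5-fold below T3WT (edgeR adjusted p = 2.34e-56). Its call in contHomo vs contWT, at -1.02 ± 0.08 (SE), was lost without contWT replicate 1, at -0.98, and without contHomo replicate 2, at -0.92. ENSXETG00000027407 (GL172740.1 from 815682 to 823507) stepped from 4.61 ± 0.163 CPM in contWT to 2.17 ± 0.109 in contHomo and 0.532 ± 0.0596 in T3Homo, with 4.42 ± 0.264 in T3WT. ENSXETG00000012244 (GL172686.1 from 2127476 to 2135521) had 8.36 ± 0.558, 5.31 ± 0.476 and 2.07 ± 0.222 CPM in the same 3 groups and 11.01 ± 0.808 in T3WT. Its span overlaps that of ENSXETG00000012240 on the other strand, and the strand setting of the counting is not given in the sources used here.

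Per kilobase of gene length, the most abundant members were ENSXETG00000032544 and ENSXETG00000019306, at 375 and 273 CPM per kb in their highest group. Both belong to the 18 with positions of 1 and above. ENSXETG00000032544 (5 exons, plus strand, GL172675.1 from 1427492 to 1430526) had the highest position of the set. In contWT its level was 384, 393 and 390.2 CPM over the 3 libraries, and in T3WT 289, 303 and 295 CPM. In contHomo it was 155, 158 and 161 CPM, and in T3Homo 69.6, 73.7 and 70.1 CPM. Each group was separate from the others, and contHomo was already 2.47-fold below contWT (log2 fold change -1.302 ± 0.02 SE, edgeR adjusted p = 1.77e-76). T3Homo was 2.24-fold below contHomo and 5.51-fold below contWT (edgeR adjusted p = 4.03e-97).

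ENSXETG00000019306 (16 exons, plus strand, GL172713.1 from 2975355 to 2987412) had the highest CPM of all members. The 3 libraries of contWT were at 1353, 1327 and 1339 CPM and those of T3WT at 1511, 1496 and 1494 CPM. Those of contHomo were at 1102, 1088 and 1084 CPM and those of T3Homo at 490.4, 486 and 492 CPM. T3WT was the highest group and T3Homo the lowest, with no overlap. T3Homo was 2.76-fold below contWT (log2 fold change -1.46 ± 0.01 SE, edgeR adjusted p = 2.75e-90), while contHomo was 1.23-fold below contWT and was not called.

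The abundant members per kilobase were not all of this kind. ENSXETG00000021242 (GL173014.1 from 215035 to 221008) was at 41.6 ± 1.27 CPM in contWT, 33.6 ± 1.38 in T3WT, 52.1 ± 0.682 in contHomo and 20.6 ± 0.741 in T3Homo. Its call in T3Homo vs contWT, at -1.02 ± 0.04 (SE), was lost at total-count scaling, at -0.96, and at -0.99 without contWT replicate 3 or without T3Homo replicate 3. ENSXETG00000000679 (GL173255.1 from 243478 to 255657) had 22.03 ± 1.15, 16.3 ± 1.301, 26.2 ± 0.859 and 7.33 ± 0.1797 CPM in these groups and was 3.03-fold lower in T3Homo than in contWT. These 2 genes shared an order, contHomo highest and T3WT below contWT. ENSXETG00000009462 (GL173037.1 from 887113 to 891601), at 25.5 ± 1.396, 24.8 ± 0.608, 16.3 ± 0.405 and 6.23 ± 0.162 CPM, stepped down. ENSXETG00000020653 (GL172742.1 from 2576868 to 2578930), at 26.96 ± 1.02, 26.4 ± 0.5603, 39.6 ± 0.797 and 19.1 ± 0.192 CPM, was not called in T3Homo or contHomo against contWT, with contHomo above contWT and T3Homo below it.

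As a set the members were less abundant than all genes with at least 2 CPM in a group. The median of the highest group mean was 9.002 CPM, against 15.7 CPM over all genes with at least 2 CPM. The interquartile range was 4.57 to 17.4 CPM in members and 6.42 to 41.4 CPM in all those genes. A highest mean under 5 CPM was found in 21 members and one of at least 50 CPM in 4. The shares of all genes past these limits were not computed. Whether the selection itself favours less abundant genes was not tested. The abundance of the 189 genes that met the condition on T3Homo and contHomo was not compared. Gene length, as summed exons in the deposited table, had a median of 1923 bases in members and 1854 in all genes with at least 2 CPM. The median number of exons was 8 and 10. The spans of 4 members overlap another annotated gene, whose reads may be shared with theirs. The longest member, ENSXETG00000001353, named after its values were seen, has 14919 bases in 98 exons.

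The members were spread over 68 scaffolds, and 2 pairs lay within 50 kb of one another. On scaffold GL172914.1, ENSXETG00000027977 (620787 to 628091) and ENSXETG00000015830 (630469 to 631359) are consecutive on the plus strand, 2377 bases apart, with short annotated lengths of 219 and 342 bases. For the second of them the levels were as follows. The contWT libraries had 7.95, 7.89 and 8.04 CPM and the T3WT libraries 7.68, 8.04 and 8.11 CPM. The contHomo libraries had 7.61, 7.61 and 7.82 CPM and the T3Homo libraries 3.29, 2.53 and 2.49 CPM. ENSXETG00000027977 was at 2.89 ± 0.187 CPM in contWT, 3.39 ± 0.101 in T3WT, 2.97 ± 0.0192 in contHomo and 1.097 ± 0.102 in T3Homo. T3Homo was the low group in both, 2.66-fold and 2.88-fold below contWT (edgeR adjusted p = 1.83e-15 and 9.74e-29). The annotated neighbours on either side behaved otherwise. ENSXETG00000015829 was at 2.55 CPM in contWT, 51.4 in T3WT, 4.70 in contHomo and 11.5 in T3Homo, and ENSXETG00000015831 was between 44.5 and 53.4 CPM in the 4 groups. Whether the members of the pair are parts of 1 transcript was not tested.

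On scaffold GL172903.1, ENSXETG00000013544 (93984 to 120016) and ENSXETG00000027686 (131478 to 175289) are consecutive on the plus strand, 11461 bases apart, with 8 exons each. ENSXETG00000013544 was at 8.94 ± 0.456 CPM in contWT, 7.03 ± 0.709 in T3WT, 11.2 ± 0.5405 in contHomo and 4.64 ± 0.206 in T3Homo. ENSXETG00000027686 was at 13.3 ± 0.319, 16.1 ± 0.288, 18.4 ± 0.727 and 7.47 ± 0.264 CPM. Both were highest in contHomo and lowest in T3Homo, and neither was called in T3Homo vs contWT, at log2 fold changes of -0.96 and -0.84. In T3WT they moved in opposite directions from contWT, without overlap. The gene before the pair, ENSXETG00000013545, was at 2.11 CPM in contWT, 2.75 in T3WT, 2.53 in contHomo and 4.21 in T3Homo, so that T3Homo was its highest group. The gene after the pair, ENSXETG00000013541, was between 0.502 and 0.781 CPM in the 4 groups, and ENSXETG00000013538 beyond it had 16.6 CPM in contHomo and 10.3 in T3Homo, a fall under the limit of a call.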

How the data were processed

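RNA of tadpole intestine was sequenced in 12 libraries. Per the submitters' processing notes, the tools were STAR 2.5.3a and featureCounts 1.4.6-p3. The authors deposited 1 table of raw counts per gene with gene length and exon positions. Build and strand setting: not given in the sources used here. Columns were grouped by the table's column names, since titles disagree for 6 libraries. Libraries are technical replicates of 1 RNA pool per group, per the labels.

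Counts were scaled with TMM factors in edgeR 4.0.16 (limma 3.58.1, R 4.3.3). The 13172 genes that passed edgeR's filter on low counts were fitted with its quasi-likelihood test over all 12 libraries, with Benjamini-Hochberg adjustment over all genes of a contrast. With a common dispersion of only 0.000172 between technical libraries, small differences pass easily, so a call also needed a fold of 2 or more beside an adjusted p under 0.05. The fit was tested on simulated data drawn with its own spread between technical libraries, which says nothing on the spread between animals. The libraries of a group differed by more than counting noise (largest chi-square p = 1.09e-78) and were counted separately. Floors cover counting error only.

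Named genes were the 10 members with the lowest T3Homo to contHomo ratio, the 8 most abundant per kilobase, those nearest the limits, those within 50 kb of another member and the 4 lowest and 4 highest positions. The members, rules and tests were chosen with earlier results of these data known, and the classes of position finer than the split at 0.5 after the values were seen. Alternatives were RLE factors, total-count scaling, no filter on low counts, DESeq2 1.42.0, a replicate block, added constants of 0.1 and 2, minimum means of 1 and 5 CPM and leaving out each library. Fits without T3WT, and on contWT and T3Homo alone, were added after seeing the data.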

Additional observations from a re-analysis of the deposited data

Results flagged for a closer look

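The difference between the T3Homo to contHomo ratio and the T3WT to contWT ratio was negative and called in 71 of the 76 members by edgeR's interaction test. It is listed because the effect differed between the groups labelled WT and Homo. The members were selected on both of these ratios, so the count describes the selection and no explanation is weighed. Under the sample titles the same term is the difference between the loss of TRα with T3 and without T3.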

How the results depend on the processing

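With 2 added in place of 0.5 the selection held 48 genes, 9 of them nearer to T3Homo, in place of 76 and 18. With a minimum mean of 1 CPM these were 87 and 26, and with 5 CPM 55 and 13. Leaving out 1 library at a time gave 74 to 80 selected genes, 16 to 20 of them nearer to T3Homo. Among the 76 it gave 9 to 10 members higher and 3 to 5 lower in contHomo than in contWT, 50 to 53 lower and 0 to 1 higher in T3Homo than in contWT, 46 to 49 lower in T3Homo than in T3WT, 76 to 76 lower in T3Homo than in contHomo and 69 to 72 with a negative interaction. RLE factors, DESeq2 and no filter on low counts left these counts of calls as they were. Deviations of libraries from their group means correlated at a mean of 0.009 for same-numbered and -0.005 for different-numbered libraries of different groups. The ranges, -0.022 to 0.038 and -0.051 to 0.041, overlapped. The best match of a library had its own number in 16 of 36 comparisons, each a choice among 3 libraries. The replicate block gave the same counts, 76, 71, 10, 5, 47, 52 and 1.

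Of 1538 alternative values of named genes, 1524 kept direction and side of the threshold, 8 lost a call, 2 gained one and 4 changed sign. ENSXETG00000017955 in T3Homo vs contWT was 0.13 without contWT replicate 1, 0.34 without T3Homo replicate 1 and 0.27 without T3Homo replicate 3, against -0.23 with all libraries, and leaving out 1 library at a time gave -3.70 to 0.34. The -3.70 is without T3Homo replicate 2, where both remaining T3Homo libraries have a count of 0, and it is no bound. ENSXETG00000027977 in contHomo vs contWT was -0.017 without contWT replicate 3, against 0.03, with a range of -0.017 to 0.069. The cause was not tested. With 1 pool a group, no value here bears on the spread between animals, and members with few counts are limited by depth.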
